A study of Mus musculus with 9 samples.

Results

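The 10 genes described here are Hif1a, Epas1, Arnt, Egln1, Egln2, Egln3, Vhl, Vegfa, Vegfb and Nrp1. These encode parts of the oxygen-sensing machinery of the cell and of vascular growth factor signalling. They were chosen by name, symbols being matched to the mouse Ensembl identifiers of the count files, and all 10 were found among 55487 identifiers. Of these, 9 passed the filter on low counts, together with 14312 genes in all. Epas1 did not pass.

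In well-oxygenated cells, prolyl hydroxylases (encoded by the Egln genes) mark the α subunits of the hypoxia-inducible factors (HIFs), and the von Hippel-Lindau protein then directs these subunits to degradation. When oxygen is short the α subunits persist, pair with the stable β subunit Arnt and bind core ACGTG or GCGTG sequences near genes of glycolysis, iron handling and vessel growth. In macrophages Hif1a mRNA also responds to inflammatory signals, and these cells are a known source of vascular endothelial growth factor (VEGF).

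RNA was sequenced from RAW264.7 cells, a mouse macrophage line, grown without any stimulation in a humidified incubator in 5% CO2 and 95% air. All 3 genotypes were of this line. Wild-type cells (CEBPD WT) were compared with cells in which CRISPR/Cas9 had removed the function of the transcription factor C/EBPδ altogether (CEBPD KO, here knock-out) and with cells in which only its transactivation domain had been deleted (CEBPD TAD, here ΔTAD). Guides on either side of that domain were used for both edits, and the knock-out cells were clones in which the deletion had shifted the reading frame, so that most of the transcript remained in either mutant. The comparisons asked how the mRNA of these genes differed when C/EBPδ was absent and when it was present but unable to activate transcription. Each genotype had 3 libraries. The series speaks of 3 independent clones selected after editing, but whether the 3 wild-type libraries are separate clones is not given in the sources used here. The p-values measure only the spread between these libraries, which may in part be technical. The edit and any other difference between the edited clones and the wild-type cells cannot be told apart.

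Depth ran from 16113306 to 20981829 reads assigned to genes in a library, and values are given as CPM (reads of a gene per 1000000 reads counted) scaled by TMM factors of 0.888 to 1.027. A count of 3, taken as the detection floor, corresponded to 0.143 to 0.21 CPM. Replicate 1 of ΔTAD stood apart. Its counts differed from the other ΔTAD libraries by a chi-square per degree of freedom of 154.4 and 155.6, against 1.985 to 4.128 for every other pair within a genotype, and its 10 most abundant genes, led by CT010467.1, took 15.8% of its counts, compared with 6.05% and 6.24% in the other 2. All 9 macrophage markers examined were expressed, with a summed level of 3500 to 3690 CPM in wild-type, 4610 to 5000 in knock-out and 7130 to 7300 in ΔTAD. Lyz2 made up most of the rise, with means of 1167, 2114 and 4192 CPM in these groups, while Fcgr1 was lower in both mutants (39.5, 17.8 and 28.9 CPM) and Itgam was at 34.3, 30.7 and 31.1. The T cell, B cell and epithelial markers had 0 counts, and no fibroblast marker exceeded 3. Cebpd itself measured 6.51 ± 0.674 CPM in wild-type but 5.44 ± 0.201 in knock-out and 5.44 ± 0.669 in ΔTAD (edgeR adjusted p = 0.0850 and 0.0931 against wild-type). Because the deletion leaves most of its transcript, this level says nothing about the labels.

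Set against each other per kilobase of exon, the 10 genes spanned a wide range. In wild-type macrophages the highest level was that of Hif1a (51.8 ± 1.06 CPM per kb, SD, n = 3), followed by Vegfb (24.0 ± 0.407) and Egln3 (15.6 ± 0.602). Next came Vegfa at 12.7, Egln1 at 12.6, Egln2 at 11.6 and Arnt at 10.7 CPM per kb, and each of these neighbours overlapped the next in its libraries. Vhl (7.67 ± 0.443) and Nrp1 (2.66 ± 0.225) lay below them without overlap. The order changed in both mutants. Vegfa passed Egln3 in the 2 mutants (22.4 ± 0.313 against 8.12 ± 0.546 CPM per kb in knock-out, 21.7 ± 1.77 against 10.5 ± 0.184 in ΔTAD), and in ΔTAD the ranges of Hif1a (29.2 to 29.8) and Vegfb (29.8 to 31.3) met. Egln3 fell below Vhl in knock-out, where it ranged from 7.53 to 8.60 and Vhl from 9.17 to 9.48 CPM per kb. Lengths are those of the merged exons of each gene, so a level per kilobase is approximate where only some isoforms are used.

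**Figure D1:**
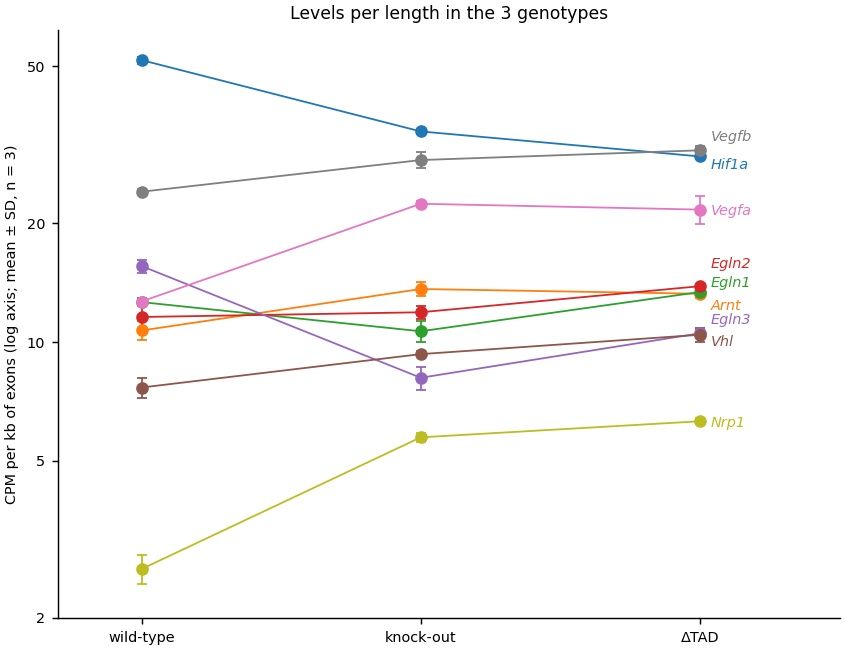
Mean level per kilobase of exon (CPM per kb, log axis, ± SD over n = 3 libraries) of the 9 genes that passed the filter, joined across the 3 genotypes. Hif1a went from 51.8 to 34.2 and 29.5 while Vegfa went from 12.7 to 22.4 and 21.7, and Nrp1 stayed lowest at 2.66, 5.74 and 6.30.

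Promoter sequence of the genes that moved furthest from wild-type is shown so that the reader can see which core motifs lie next to their starts. RefSeq (GRCm38.p6) had an entry for 9 of the 10 genes, not Epas1. For Hif1a and Nrp1 the RefSeq start lies downstream of the gene start given further below, so their windows fall within the gene. The 250 bases before the start of Hif1a, Egln3, Vegfa and Nrp1 read as follows, 5′ to 3′ on the strand of the gene, with capitals marking every ACGTG or GCGTG (HIF core), CCAAT (the box that gives the C/EBP family its name) and TTGCNNAA (a C/EBP-type site) on either strand.
Hif1a, chr12:73907617-73907866, plus strand: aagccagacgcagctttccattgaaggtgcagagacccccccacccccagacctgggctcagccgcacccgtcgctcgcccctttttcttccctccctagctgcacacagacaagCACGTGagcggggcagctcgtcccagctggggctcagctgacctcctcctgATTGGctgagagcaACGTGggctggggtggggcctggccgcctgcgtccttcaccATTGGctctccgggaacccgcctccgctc
Egln3, chr12:54203875-54204124, minus strand: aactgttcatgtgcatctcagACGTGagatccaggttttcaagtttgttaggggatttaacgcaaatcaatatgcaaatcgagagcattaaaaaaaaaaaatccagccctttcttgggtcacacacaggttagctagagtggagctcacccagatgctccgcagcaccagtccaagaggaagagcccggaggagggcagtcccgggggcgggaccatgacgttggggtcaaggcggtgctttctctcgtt
Vegfa, chr17:46032378-46032627, minus strand: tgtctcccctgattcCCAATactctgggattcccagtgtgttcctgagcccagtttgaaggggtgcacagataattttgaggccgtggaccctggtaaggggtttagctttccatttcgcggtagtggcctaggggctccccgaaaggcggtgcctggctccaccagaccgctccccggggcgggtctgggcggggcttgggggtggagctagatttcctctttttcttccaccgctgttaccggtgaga
Nrp1, chr8:128358823-128359072, plus strand: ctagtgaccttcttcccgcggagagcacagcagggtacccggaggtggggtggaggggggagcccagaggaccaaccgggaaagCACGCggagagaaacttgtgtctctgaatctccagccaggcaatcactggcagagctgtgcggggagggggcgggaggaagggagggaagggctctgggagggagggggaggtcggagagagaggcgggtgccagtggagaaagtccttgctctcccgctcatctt
In Hif1a the first block of capitals, CACGTG, holds ACGTG on both strands, another ACGTG begins 70 bases before the start, and the remaining blocks are CCAAT on the opposite strand (ATTGG). The window of Egln3 held 1 ACGTG, 229 bases before the start. Vegfa had a CCAAT 235 bases before the start and neither HIF core in this window, although a second Vegfa entry further into the gene held 1 ACGTG, 1 GCGTG and 1 CCAAT. Nrp1 had 1 GCGTG on the opposite strand (CACGC).

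Counting the first promoter of each gene with an entry, 7 of 9 held ACGTG or GCGTG, 3 held CCAAT and 0 held TTGCNNAA. Among all 32851 promoters of the same length, ACGTG or GCGTG was found in 38.6%, ACGTG in 16.6%, GCGTG in 28.2%, CCAAT in 33.8% and TTGCNNAA in 9.56%. This background counts every entry, further entries of the same gene included, and was not matched for base composition or expression. An enrichment was not tested. Such matches describe the letters of these windows only, and HIF sites further from the start were not searched.

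Against wild-type, 8 of the 9 tested genes passed the threshold (adjusted p under 0.01) in knock-out macrophages, 5 of them higher and 3 lower. Over all genes tested that share was 45.2% (22.8% higher, 22.4% lower). In ΔTAD macrophages 8 of 9 passed as well, 6 higher and 2 lower, where the share over all genes was 49.7% (26.3% higher, 23.4% lower). Between knock-out and ΔTAD 4 of 9 passed, 1 higher and 3 lower in knock-out, against 33.0% of all genes (13.9% higher, 19.1% lower). Without ΔTAD replicate 1, 8 genes passed between ΔTAD and wild-type (6 higher, 2 lower) and 3 between the mutants (1 higher, 2 lower). The libraries did not overlap for 8 of 9 genes between knock-out and wild-type, for 9 of 9 between ΔTAD and wild-type and for 6 of 9 between knock-out and ΔTAD, compared with 59.7%, 63.1% and 52.8% of all genes. The comparisons with wild-type share the same 3 wild-type libraries and are not independent of each other.

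**Figure D2:**
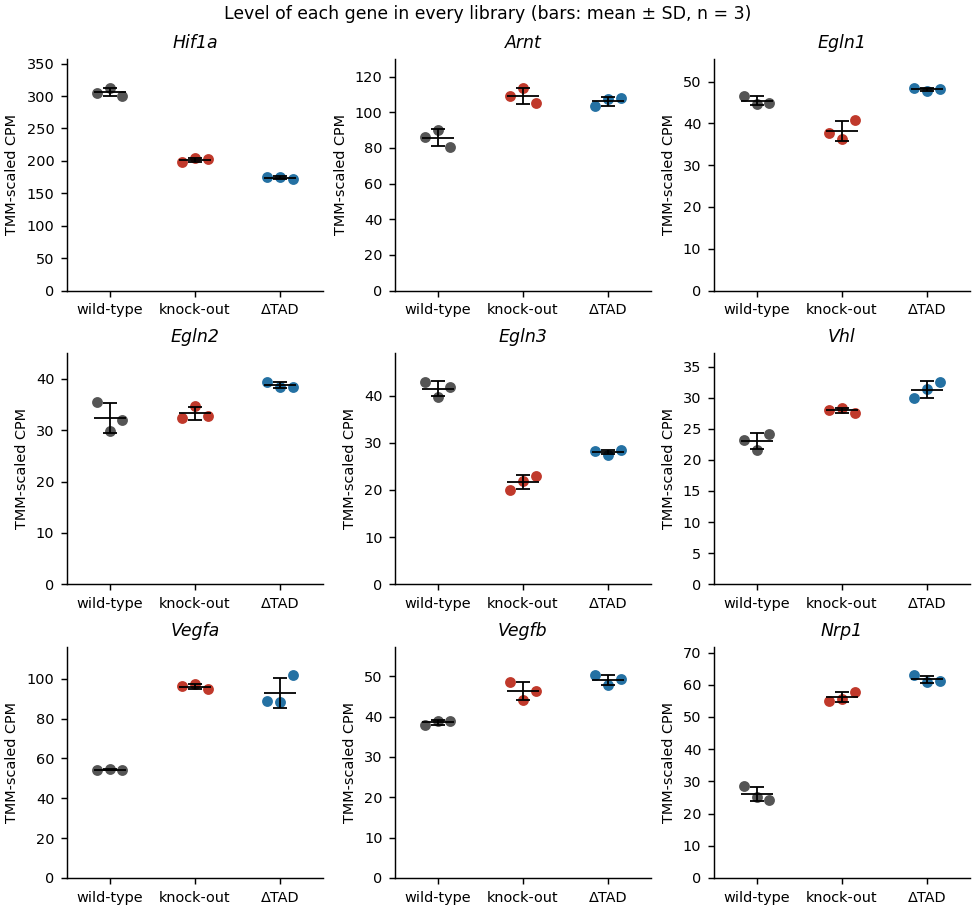
TMM-scaled CPM of each tested gene in every library, 1 panel per gene with its own axis from 0; points are the 3 libraries of a genotype (replicates 1 to 3 from left to right) and black bars their mean ± SD. Hif1a and Egln3 were lower and Arnt, Vhl, Vegfa, Vegfb and Nrp1 higher in both mutants than in any wild-type library, whereas Egln1 was lower in knock-out and Egln2 higher in ΔTAD.

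Hif1a (ENSMUSG00000021109, chr12:73901375-73947530, plus strand, GRCm38) encodes the oxygen-labile α subunit of HIF-1. Wild-type libraries held 304, 312 and 300.04 CPM, knock-out libraries 198, 204 and 202, and ΔTAD libraries 175, 176 and 172. The 3 genotypes formed separate bands with ΔTAD lowest. In bulk RNA, fewer cells that express a gene and less RNA per cell cannot be told apart. Hif1a mRNA was 1.52-fold lower in knock-out than in wild-type (log2 fold change -0.60 ± 0.0346, SE, n = 3 per genotype, edgeR adjusted p = 2.04e-13) and 1.75-fold lower in ΔTAD (-0.81 ± 0.0348, edgeR adjusted p = 5.50e-16). Knock-out cells kept 1.16-fold more of it than ΔTAD cells (log2 fold change 0.21 ± 0.0350, edgeR adjusted p = 3.22e-05). On the opposite strand the antisense gene Gm15283 overlaps Hif1a. It had 2 to 12 counts per library, far below the 2500 to 6106 counts of Hif1a.

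Genes of chromosome 12 as a whole were also lower in both mutants. The median log2 fold change of its 541 tested genes was -0.52 in knock-out, with 86.32% of them below 0, and -0.54 in ΔTAD, with 85.03% below 0. Relative to that median, the log2 fold change of Hif1a was -0.08 in knock-out and no longer passed (edgeR adjusted p = 0.0594), but it remained -0.27 in ΔTAD (edgeR adjusted p = 4.05e-07). The 100 tested genes around Hif1a (50 on each side) spanned 15.5 Mb. Of these, 42.0% changed to a lower value than Hif1a in knock-out and 24.0% did so in ΔTAD. Between knock-out and ΔTAD the chromosome had a median of -0.01, and the difference in Hif1a was 0.22 above it.

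Arnt (ENSMUSG00000015522, chr3:95434388-95497240, plus strand), the constitutive β subunit that pairs with either α subunit, moved in the opposite direction. Its level was 86.1, 90.2 and 80.8 CPM in wild-type, 109, 114 and 104.9 in knock-out and 103.3, 107.2 and 108 in ΔTAD. Every mutant library exceeded every wild-type library. The rise was 1.27-fold in knock-out (log2 fold change 0.35 ± 0.0393, edgeR adjusted p = 4.50e-08) and 1.24-fold in ΔTAD (0.31 ± 0.0393, edgeR adjusted p = 2.48e-07). Knock-out and ΔTAD libraries overlapped, with a difference of 0.04 on the log2 scale and a 95% interval of -0.0417 to 0.117. The overlapping pseudogene Gm42672 had 11 to 29 counts, compared with 1334 to 2269 for Arnt.

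Hif1a and Arnt pair into 1 complex, and the ratio of their mRNA levels per kilobase shifted accordingly. Hif1a to Arnt was 4.7 to 5.04 in the wild-type libraries, 2.44 to 2.62 in knock-out and 2.16 to 2.3 in ΔTAD. These ranges did not overlap.

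Epas1 (ENSMUSG00000024140, chr17:86753700-86833410, plus strand) encodes HIF-2α, the other main α subunit. It had 2 counts in 1 wild-type library and 0 in the other 8 libraries, so it was under the floor of 3 counts in every genotype and no comparison was possible. Hif3a, which encodes the third α subunit, had 0 to 6 counts per library, and Arnt2, the paralogue of Arnt, had 0 or 1. At this depth Hif1a and Arnt were thus the only HIF subunits above the filter in these macrophages.

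Egln1 (ENSMUSG00000031987, chr8:124908587-124949324, minus strand) encodes PHD2, the main prolyl hydroxylase acting on HIF-1α under normal oxygen. In wild-type it measured 46.6, 44.7 and 44.8 CPM. Knock-out libraries were lower at 37.7, 36.3 and 40.9, whereas ΔTAD libraries, at 48.5, 47.7 and 48.3, were slightly above wild-type. The fall in knock-out was 1.19-fold (log2 fold change -0.25 ± 0.0508, edgeR adjusted p = 0.000213). In ΔTAD the log2 fold change was 0.08 and did not pass (95% interval -0.0181 to 0.184, edgeR adjusted p = 0.149). The direct comparison put knock-out 1.26-fold below ΔTAD (-0.33 ± 0.0502, edgeR adjusted p = 1.10e-05), and no knock-out library reached the lowest ΔTAD library.

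Egln2 (ENSMUSG00000058709, chr7:27158658-27166802, minus strand) encodes PHD1, a hydroxylase of the same family. Its libraries measured 35.5, 29.8 and 31.9 CPM in wild-type, 32.4, 34.7 and 32.8 in knock-out and 39.5, 38.5 and 38.5 in ΔTAD. Wild-type and knock-out overlapped, and ΔTAD lay above both. In knock-out the log2 fold change was 0.03 (95% interval -0.0935 to 0.162, edgeR adjusted p = 0.669), whereas ΔTAD gave 0.25 ± 0.0602 (edgeR adjusted p = 0.000827). Knock-out was 0.22 below ΔTAD on the log2 scale (edgeR adjusted p = 0.00457), a call that was lost under DESeq2 (adjusted p = 0.0139), with scaling by library size alone (edgeR adjusted p = 0.134), and without knock-out replicate 1 (edgeR adjusted p = 0.0286) or 3 (0.0176) or ΔTAD replicate 1 (0.0187) or 2 (0.0102). With library size alone the rise in ΔTAD over wild-type was not called either (0.17, edgeR adjusted p = 0.0540). Egln2 overlaps Cyp2t4 on the opposite strand, and whether the counting used strand was not given in the sources used here.

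Egln3 (ENSMUSG00000035105, chr12:54178981-54203860, minus strand) encodes PHD3, a hydroxylase whose gene is itself a HIF target. At 42.9, 39.8 and 41.8 CPM in wild-type, 20.04, 21.9 and 22.9 in knock-out and 28.3, 27.5 and 28.4 in ΔTAD, it was the hydroxylase gene that differed most from wild-type in both mutants. The fall was 1.92-fold in knock-out (log2 fold change -0.94 ± 0.0613, edgeR adjusted p = 2.06e-12) and 1.48-fold in ΔTAD (-0.57 ± 0.0586, edgeR adjusted p = 8.36e-09). Knock-out lay below ΔTAD by 0.38 on the log2 scale (SE 0.0644, edgeR adjusted p = 4.71e-05). Egln3 shares chromosome 12 with Hif1a. Relative to the median of that chromosome it was 0.42 lower in knock-out (edgeR adjusted p = 2.91e-06), but in ΔTAD the remaining log2 fold change was -0.02 (edgeR adjusted p = 0.748). The 100 tested genes around it (50 on each side) spanned 37.2 Mb. Of these, 10.0% had a lower value than Egln3 in knock-out and 52.0% in ΔTAD.

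Since Hif1a fell most in ΔTAD and Egln3 most in knock-out, their ratio per kilobase separated the 2 mutants. It was 3.2 to 3.55 in wild-type, 3.99 to 4.46 in knock-out and 2.74 to 2.89 in ΔTAD. Among the hydroxylases, the ratio of Egln1 to Egln3 per kilobase went from 0.794 to 0.833 in wild-type to 1.22 to 1.39 in knock-out and 1.26 to 1.29 in ΔTAD. Egln3 was thus the most abundant hydroxylase mRNA per kilobase in wild-type and the least abundant in both mutants.

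Vhl (ENSMUSG00000033933, chr6:113623959-113631633, plus strand) encodes the protein that recognises hydroxylated HIF-α. It rose from 23.2, 21.6 and 24.2 CPM in wild-type to 27.9, 28.4 and 27.5 in knock-out and 29.9, 31.4 and 32.6 in ΔTAD. No mutant library overlapped wild-type. The rise was 1.22-fold in knock-out (log2 fold change 0.28 ± 0.0635, edgeR adjusted p = 0.000559) and 1.36-fold in ΔTAD (0.45 ± 0.0621, edgeR adjusted p = 1.01e-06). Knock-out was 0.17 below ΔTAD without passing the threshold (95% interval -0.292 to -0.0425, edgeR adjusted p = 0.0271).

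Vegfa (ENSMUSG00000023951, chr17:46016993-46032369, minus strand) encodes the main angiogenic VEGF and is a textbook HIF target. The wild-type libraries were nearly identical at 54.1, 54.5 and 54.3 CPM. Those of the knock-out held 96.3, 97.3 and 94.6 CPM and those of ΔTAD 88.6, 88.3 and 101.6. Vegfa mRNA was thus 1.77-fold higher in knock-out (log2 fold change 0.82 ± 0.0449, edgeR adjusted p = 7.20e-14) and 1.71-fold higher in ΔTAD (0.78 ± 0.0448, edgeR adjusted p = 1.72e-13). The 2 mutants overlapped, with a log2 difference of 0.05 and a 95% interval of -0.0410 to 0.131. It rose while the mRNA of Hif1a, which encodes its best-known regulator, fell. Each of the 2 genes lies on a chromosome that was displaced as a whole in the same direction as the gene. HIF-1α protein was not measured, and a link between these changes was not tested.

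Chromosome 17 as a whole was higher in both mutants. The median log2 fold change of its 746 tested genes was 0.48 in knock-out, where 86.46% lay above 0, and 0.50 in ΔTAD, where 82.98% did. Relative to that median Vegfa was still 0.34 higher in knock-out (edgeR adjusted p = 7.20e-07) and 0.28 higher in ΔTAD (edgeR adjusted p = 1.04e-05). The 100 tested genes around Vegfa (50 on each side) spanned 12.4 Mb. Of these, 81.0% rose less or fell in knock-out and 80.0% in ΔTAD.

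Vegfb (ENSMUSG00000024962, chr19:6982473-6987651, minus strand) encodes a related ligand of VEGF receptor 1 that, unlike Vegfa, is not a classical hypoxia-induced gene. It measured 37.8, 38.9 and 39.0 CPM in wild-type, 48.7, 44.2 and 46.4 in knock-out and 50.2, 47.8 and 49.4 in ΔTAD. All 6 mutant libraries were above wild-type. The increase was 1.21-fold in knock-out (log2 fold change 0.27 ± 0.0493, edgeR adjusted p = 5.17e-05) and 1.27-fold in ΔTAD (0.35 ± 0.0487, edgeR adjusted p = 1.19e-06). The mutants overlapped each other, at a log2 difference of -0.08 (95% interval -0.176 to 0.0199). Per kilobase, the ratio of Vegfa to Vegfb was 0.521 to 0.536 in wild-type, 0.741 to 0.824 in knock-out and 0.661 to 0.77 in ΔTAD, so Vegfb stayed the more abundant of the pair in every library.

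Nrp1 (ENSMUSG00000025810, chr8:128358604-128503363, plus strand) encodes neuropilin 1, a co-receptor for VEGF and class 3 semaphorins. It showed the largest fold change of the 9 tested genes in either mutant. Its level was 28.5, 25.2 and 24.3 CPM in wild-type, 55.0, 55.5 and 57.9 in knock-out and 62.9, 60.9 and 61.2 in ΔTAD. This was a 2.15-fold increase in knock-out (log2 fold change 1.10 ± 0.0538, edgeR adjusted p = 8.34e-15) and a 2.36-fold increase in ΔTAD (1.24 ± 0.0529, edgeR adjusted p = 5.32e-16). Of all tested genes, 7.66% in knock-out and 9.31% in ΔTAD passed with a log2 fold change of at least 1 in either direction, as did 3.93% between the mutants. Knock-out was 0.13 below ΔTAD, which did not pass (95% interval -0.231 to -0.0358, edgeR adjusted p = 0.0244). Chromosome 8 showed no such shift, its medians being 0.00 and 0.03. Around Nrp1 54 tested genes were taken (at most 50 on each side, spanning 6.67 Mb). Of these, 94.4% in knock-out and 96.3% in ΔTAD had lower values.

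**Figure D3:**
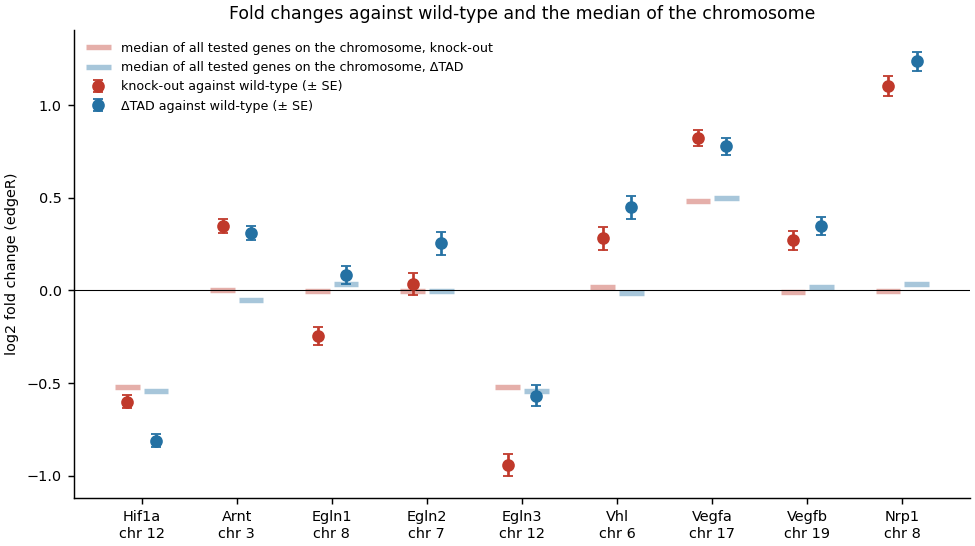
log2 fold change against wild-type (y axis, points, ± SE) of the 9 tested genes in knock-out (red) and ΔTAD (blue), with pale bars at the median log2 fold change of all tested genes on the same chromosome. Only chromosomes 12 (Hif1a and Egln3, bars at -0.52 and -0.54) and 17 (Vegfa, bars at 0.48 and 0.50) were displaced among those shown.

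**Figure D4:**
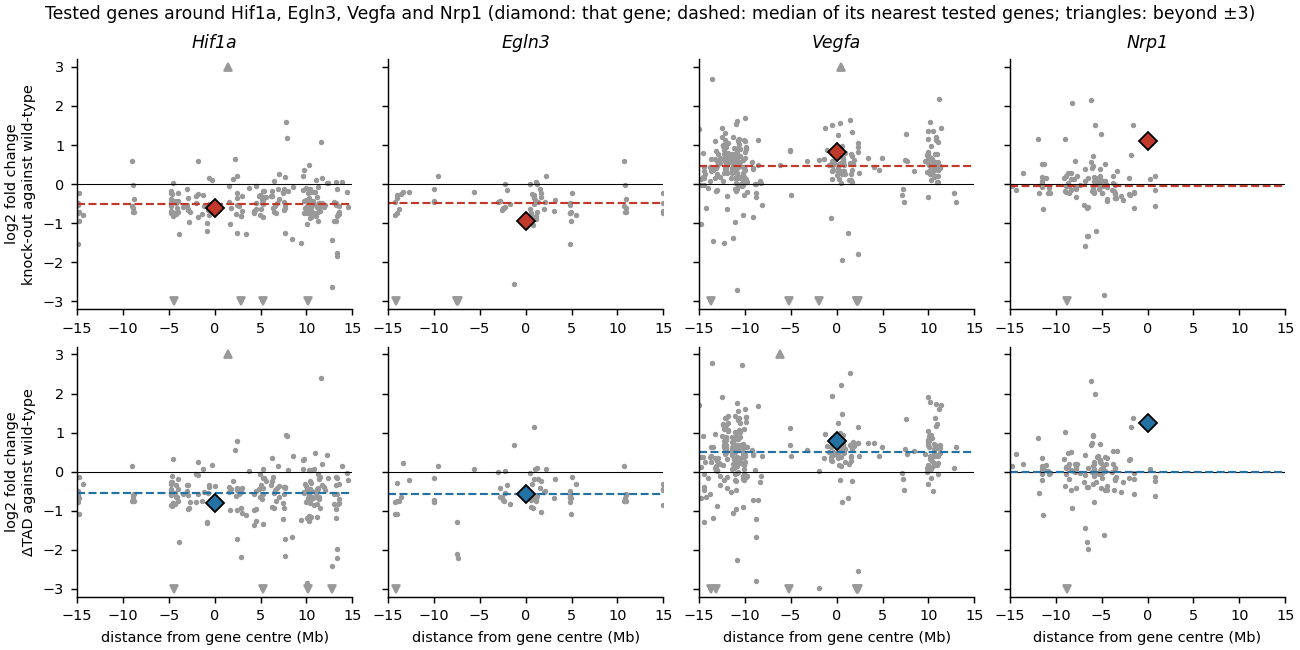
log2 fold change (y axis) of tested genes around Hif1a, Egln3, Vegfa or Nrp1, knock-out above and ΔTAD below. The x axis is the distance in Mb from the centre of the named gene. The diamond is that gene, and triangles mark values beyond the y axis. The dashed line is the median of up to 50 tested genes on each side, which for Egln3 span 37.2 Mb and reach beyond the panel. Hif1a lies near its neighbours in knock-out (-0.60 against -0.51) and Egln3 on them in ΔTAD (-0.57 against -0.58), whereas Nrp1 stands far above its neighbours in both.

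The partners of the VEGF ligands and neuropilins give the setting of these changes. Of 20 listed symbols of VEGF ligands, receptors and co-receptors outside the 10 genes, 19 were in the annotation and 9 were tested. In knock-out 6 rose and 2 fell (22.8% and 22.4% of all genes), and in ΔTAD 5 rose and 1 fell (26.3% and 23.4% of all genes). The gene that fell in ΔTAD was Kdr, and those that fell in knock-out were Kdr and Gipc1. Kdr passed the filter on low counts only through its wild-type libraries, so its falls are not read as a result. Between the mutants 3 were higher and 2 lower in knock-out (13.9% and 19.1% of all genes). The other VEGF ligands were hardly detected, with at most 6 counts of Pgf, 1 of Vegfc and 0 of Vegfd in any library. Nrp2, the second neuropilin, was far more abundant than Nrp1. It went from 957, 924 and 937 CPM in wild-type to 1442, 1390 and 1408 in knock-out and 1280.5, 1312 and 1278 in ΔTAD. This amounted to a rise of 0.59 ± 0.0262 on the log2 scale in knock-out (edgeR adjusted p = 1.40e-15) and 0.46 ± 0.0262 in ΔTAD (edgeR adjusted p = 1.51e-13). As Nrp1 rose more, the ratio of Nrp2 to Nrp1 per kilobase went down from 27.7 to 31.8 in wild-type to 20.1 to 21.6 in knock-out and 16.8 to 17.8 in ΔTAD.

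The plexins, which form semaphorin receptors together with neuropilins, moved the same way where they passed. Plxna2 rose by 1.10 in knock-out (edgeR adjusted p = 1.13e-17) and 1.09 in ΔTAD (edgeR adjusted p = 8.74e-18) on the log2 scale. Plxna1 rose by 0.61 in knock-out (edgeR adjusted p = 5.79e-13) and by 0.38 in ΔTAD (edgeR adjusted p = 2.45e-09). Plxna3 rose by 0.91 in knock-out (edgeR adjusted p = 3.22e-07) while its value in ΔTAD was 0.16 (edgeR adjusted p = 0.299), and the 2 mutants differed by 0.75 (edgeR adjusted p = 8.73e-06). Sema4a, a transmembrane semaphorin, did the reverse. It was 0.64 higher in ΔTAD (edgeR adjusted p = 9.44e-12) and 0.03 in knock-out (edgeR adjusted p = 0.675), a difference of -0.61 between knock-out and ΔTAD (edgeR adjusted p = 9.59e-11). Gipc1, an adaptor that binds the cytoplasmic tail of neuropilin 1, measured 80.8 ± 0.905 CPM in wild-type but 51.4 ± 1.84 in knock-out, and 78.4 ± 1.63 in ΔTAD. It fell by 0.66 on the log2 scale in knock-out (edgeR adjusted p = 2.03e-13), and was 0.61 below ΔTAD there (edgeR adjusted p = 3.23e-12).

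The signalling VEGF receptors were near the detection floor. Kdr, which encodes VEGF receptor 2, had 25, 10 and 12 counts in wild-type, 4, 2 and 1 in knock-out and 1, 0 and 0 in ΔTAD. It passed the filter on low counts only through its wild-type libraries, so neither a fold nor a test is given. Flt1 had 11, 6 and 4 counts in wild-type, 2, 6 and 3 in knock-out and 3, 2 and 2 in ΔTAD and was not tested, and Flt4 had 1 count in a single library. The summed level of the endothelial markers Pecam1, Cdh5 and Tek was 2.08 to 2.79 CPM in wild-type, 0.604 to 0.737 in knock-out and 0.144 to 0.35 in ΔTAD, nearly all of it Pecam1, which leukocytes also express. Tek was at 0 in every library of wild-type and ΔTAD, and the part of these transcripts in the counts of Kdr was not tested.

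Genes that work with the sensors moved in either direction. Of 16 listed HIF cofactors, oxygen sensors and partners of the von Hippel-Lindau ligase 13 were tested, and 3 rose and 3 fell in knock-out, 4 rose and 4 fell in ΔTAD, and 0 were higher and 3 lower in knock-out than in ΔTAD. The shares called, 46.2%, 61.5% and 23.1%, stand beside 45.2%, 49.7% and 33.0% of all genes. Their median stood at -0.09 on the log2 scale for knock-out and at -0.01 for ΔTAD. Elob, which encodes the elongin B subunit of that ligase, rose by 0.50 in knock-out (edgeR adjusted p = 2.69e-10) and 0.60 in ΔTAD (edgeR adjusted p = 6.05e-12), close to the median of chromosome 17, on which it lies. Its partner Eloc fell by 0.13 (edgeR adjusted p = 0.00794) and by 0.17 (edgeR adjusted p = 0.00108). Cited2, whose product competes with HIF-1α for the coactivators Ep300 and Crebbp, fell by 0.38 in knock-out (edgeR adjusted p = 7.96e-09) and by 0.38 in ΔTAD (edgeR adjusted p = 6.63e-09). Ep300 rose by 0.12 in knock-out (edgeR adjusted p = 0.00459).

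Hspa8, a chaperone that takes part in the lysosomal breakdown of HIF-1α, fell by 0.47 in knock-out (edgeR adjusted p = 5.62e-11) and by 0.32 in ΔTAD (edgeR adjusted p = 5.38e-08). Arntl, a circadian relative of Arnt, rose by 0.41 (edgeR adjusted p = 2.28e-05) and by 0.26 (edgeR adjusted p = 0.00296). Os9, which binds HIF-1α and the hydroxylases, rose by 0.20 in ΔTAD (edgeR adjusted p = 2.77e-05). Hif1an encodes FIH, the asparagine hydroxylase that limits the activity of HIF-α. It measured 62.4 ± 1.04 CPM in wild-type and 62.9 ± 1.10 in knock-out, against 69.4 ± 2.83 in ΔTAD, and like Os9 and Hspa8 it was lower in knock-out than in ΔTAD (log2 difference -0.15, edgeR adjusted p = 0.00320).

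HIF target genes moved in both directions. Of 74 listed target symbols 73 were in the annotation and 66 were tested. In knock-out 19 were higher and 26 lower than in wild-type (68.2% called, 45.2% of all genes), with a median log2 fold change of -0.07 beside -0.001 for all genes. ΔTAD, in which Hif1a mRNA was lowest, had 28 higher and 19 lower (71.2% called, 49.7% of all genes) and a median of 0.06 beside -0.003. The direct comparison was more one-sided. In knock-out 9 targets were higher and 35 lower than in ΔTAD (66.7% called, 33.0% of all genes, of which 13.9% higher and 19.1% lower), at a median of -0.18 beside -0.03 for all genes. P4ha2 is among the targets counted as lower in each mutant than in wild-type. It passed the filter only through its wild-type libraries, with 0 or 1 counts in every mutant library. The medians without it were -0.06, 0.07 and -0.18. Scaling by library size alone left 10 higher and 20 lower between knock-out and ΔTAD, and 20 higher and 21 lower in ΔTAD against wild-type. In that setting 23.1% and 45.6% of all genes were called, with all-gene medians of 0.04 and -0.09. Without ΔTAD replicate 1 the counts were 9 higher and 34 lower between the mutants, and 26 higher and 20 lower in ΔTAD against wild-type. The shares over all genes were then 30.9% and 47.5%. None of the tested targets lies on chromosome 12 and 2 lie on chromosome 17, without which 17 rose and 26 fell in knock-out and 26 rose and 19 fell in ΔTAD.

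**Figure D5:**
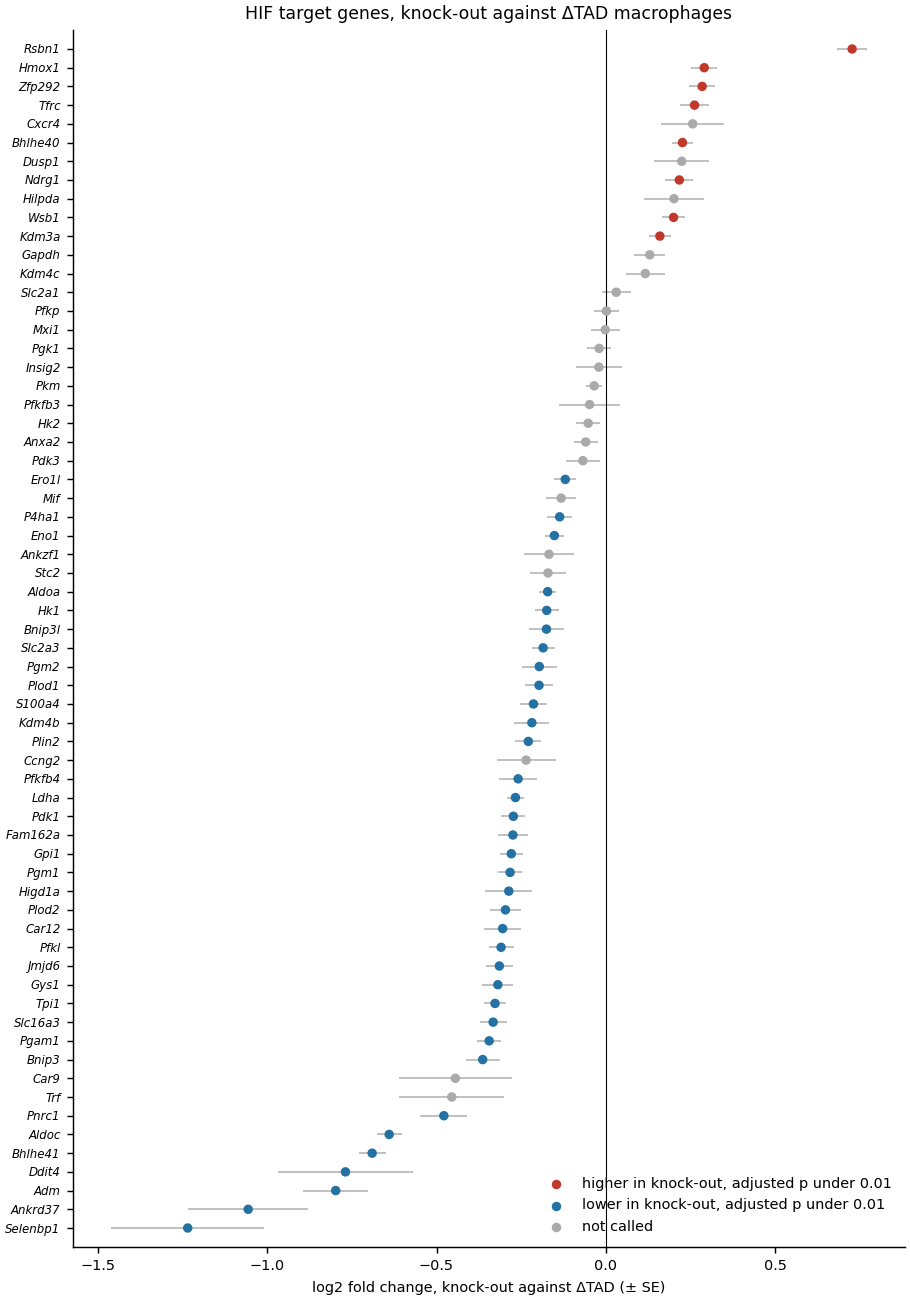
log2 fold change of knock-out against ΔTAD (x axis, ± SE) for 64 tested HIF target genes, ordered by value; red points were higher and blue points lower in knock-out at an adjusted p under 0.01, grey points were not called. Most coloured points lie to the left (8 red, 35 blue), from Rsbn1 at 0.73 to Selenbp1 at -1.23; P4ha2, with 0 or 1 counts in every mutant library, is not drawn.

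Genes of glucose breakdown and transport were 12 of these 35. Of 19 targets that act in glycolysis, glucose uptake or lactate export, 2 rose and 13 fell in knock-out (22.8% and 22.4% of all genes) and 5 rose and 7 fell in ΔTAD (26.3% and 23.4%). In knock-out 12 were lower and 0 higher than in ΔTAD (19.1% and 13.9% of all genes). This grouping and the other groupings by role were made after the values were seen. Aldoc, an aldolase, rose in both mutants, by 1.03 in knock-out (edgeR adjusted p = 3.41e-16) and 1.67 in ΔTAD (edgeR adjusted p = 6.34e-21). Pfkfb3, whose product makes the activator of phosphofructokinase, fell by 0.70 (edgeR adjusted p = 1.50e-07) and by 0.65 (edgeR adjusted p = 3.41e-07). Among 5 genes that act on pyruvate entry into mitochondria or on glycogen, 4 were lower and 0 higher in knock-out than in ΔTAD (19.1% and 13.9% of all genes). The same held for 4 of 4 genes of mitochondria and mitophagy. Against wild-type, 2 of the 5 rose and 1 fell in knock-out, while 4 rose and 0 fell in ΔTAD. Of the 4 mitochondrial genes, 1 rose and 1 fell in knock-out, while 3 rose and 0 fell in ΔTAD. Over all genes the shares were 22.8% and 22.4% in knock-out and 26.3% and 23.4% in ΔTAD. Among all tested targets 35 were lower and 9 higher in knock-out than in ΔTAD. Of 4 tested genes for collagen-modifying enzymes, 2 rose and 1 fell in either mutant (22.8% and 22.4% of all genes in knock-out, 26.3% and 23.4% in ΔTAD). The gene that fell was P4ha2, which passed the filter only through its wild-type libraries, so its fall is not read as a result. Between the mutants 3 were lower and 0 higher in knock-out (19.1% and 13.9% of all genes). The 4 Jumonji demethylase genes were divided. Against wild-type, 3 were higher and 1 lower in knock-out (22.8% and 22.4% of all genes). In ΔTAD 2 were higher and 0 lower (26.3% and 23.4% of all genes). Between the mutants 1 was higher and 2 lower in knock-out (13.9% and 19.1% of all genes).

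Cxcr4 and Car12 stood at either end of the named targets. Cxcr4, a chemokine receptor, went from 2.66 ± 0.606 CPM in wild-type to 13.9 ± 0.902 in knock-out and 11.7 ± 0.482 in ΔTAD, a rise of 2.37 (edgeR adjusted p = 4.37e-14) and 2.12 (edgeR adjusted p = 5.41e-13) on the log2 scale. Car12, a carbonic anhydrase, went the other way. It measured 105.98 ± 3.49 CPM in wild-type but 21.8 ± 0.683 in knock-out and 27.0 ± 0.622 in ΔTAD. On the log2 scale it fell by 2.28 in knock-out (edgeR adjusted p = 3.34e-22) and fell by 1.97 in ΔTAD (edgeR adjusted p = 1.54e-21).

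Other targets rose in both mutants. The transcriptional repressor Bhlhe40 rose by 1.61 in knock-out (edgeR adjusted p = 1.48e-21) and 1.38 in ΔTAD (edgeR adjusted p = 2.07e-20). Ccng2, an atypical cyclin, rose by 1.34 (edgeR adjusted p = 1.01e-10) and 1.58 (edgeR adjusted p = 2.17e-12). The phosphatase gene Dusp1, which lies on chromosome 17, rose by 1.78 (edgeR adjusted p = 1.31e-13) and 1.56 (edgeR adjusted p = 2.10e-12).

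Among the targets that fell in both, Ndrg1, a stress-response gene, fell by 1.28 in knock-out (edgeR adjusted p = 7.68e-19) and fell by 1.501 in ΔTAD (edgeR adjusted p = 3.27e-20). Stc2, a secreted glycoprotein, fell by 0.60 (edgeR adjusted p = 3.32e-10) and fell by 0.42 (edgeR adjusted p = 7.04e-08).

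The 5 called targets furthest below ΔTAD in knock-out were Selenbp1, Ankrd37, Adm, Ddit4 and Bhlhe41. Selenbp1 stood at 1.18 ± 0.234 CPM in knock-out and 2.84 ± 0.583 in ΔTAD (log2 difference -1.23, edgeR adjusted p = 0.000101). Ankrd37 measured 2.62 ± 0.721 and 5.41 ± 0.192 CPM (-1.06, edgeR adjusted p = 3.85e-05). Adm, which encodes the vasodilator adrenomedullin, was at 10.1 ± 0.887 CPM in knock-out and 17.4 ± 2.11 in ΔTAD (-0.80, edgeR adjusted p = 3.54e-07). The difference was -0.77 for Ddit4, an inhibitor of mTORC1 signalling (edgeR adjusted p = 0.00306), and -0.69 for the repressor Bhlhe41 (edgeR adjusted p = 8.30e-13). Compared with wild-type, Selenbp1, Ankrd37 and Adm were not called in knock-out (log2 fold changes -0.03, 0.14 and 0.22). In ΔTAD each of them was called higher. Bhlhe41 rose in both mutants, by 0.58 in knock-out and 1.27 in ΔTAD, both called. Of these 5 targets only Ddit4 was called lower in knock-out than in wild-type (-0.93). Its value of -0.16 in ΔTAD was not called.

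In the other direction Rsbn1 was 0.73 higher in knock-out than in ΔTAD (edgeR adjusted p = 1.66e-12). Smaller differences were seen for Hmox1, the heme oxygenase (0.29, edgeR adjusted p = 1.58e-06), for Zfp292 (0.28, edgeR adjusted p = 1.82e-06) and for the transferrin receptor gene Tfrc (0.26, edgeR adjusted p = 2.42e-05). Against wild-type, Hmox1, Zfp292 and Tfrc were not called in knock-out. In ΔTAD their log2 fold changes were -0.35, -0.35 and -0.27, all called. Rsbn1 had 0.36 in knock-out and -0.37 in ΔTAD, both called.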

How the data were processed

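Total RNA from 9 libraries (3 per genotype, grouped by the donor labels) had been depleted of ribosomal RNA and sequenced as single-end reads. The deposited files hold raw counts per Ensembl gene, made by the authors with Trimmomatic (0.36), HISAT2 (2.3.4.3) and HTSeq as named in the submitters' processing notes, on GRCm38. The methods of the study give other versions, and the counting mode and strand setting were not given in the sources used here. Of all alignment records, 46.65 to 53.23% were counted on genes. Rows that name no gene were left out.

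Gene names, positions and exon lengths came from GENCODE M21 and promoters from RefSeq. Counts were filtered with filterByExpr (minimum count 10, minimum total 15), scaled by TMM and tested in edgeR 4.0.16 (R 4.3.3) with the quasi-likelihood test on all 9 libraries, with a mean per genotype and no covariate. Benjamini-Hochberg adjustment ran over all 14312 genes, and a gene was called at an adjusted p under 0.01, the threshold of the study. Each standard error was taken as the absolute log2 fold change over the root of F. The procedure was tested on simulated data.

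The 10 genes and the lists of cofactors, VEGF genes and HIF targets were chosen with earlier results of these data known. From the lists the text names called cofactor and VEGF genes with a log2 fold change of at least 0.5 or among the 3 highest or lowest, the VEGF receptors and Nrp2, and the 5 highest and 5 lowest called targets per comparison that averaged 1 CPM or more in whichever genotype was higher. A target named by this rule is not reported here and is left out of the plot, but is included in the counts. The comparisons were repeated with limma-voom (limma 3.58.1), with DESeq2 1.42.0, under other size factors and filters, relative to the chromosome median, at an adjusted p under 0.05, with a block for the replicate number, on 2 genotypes alone and without each library in turn. For the HIF targets, leaving out each library was added after seeing the data.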

Additional observations from a re-analysis of the deposited data

Results flagged for a closer look

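For 4 genes the effects of the knock-out and of ΔTAD differed in the direct comparison of the mutants (edgeR's quasi-likelihood test, Benjamini-Hochberg adjusted p). Hif1a was 0.21 higher in knock-out on the log2 scale (adjusted p = 3.22e-05), with 3 of 3 knock-out libraries above every ΔTAD library. Egln1 differed by -0.33 (adjusted p = 1.10e-05), Egln3 by -0.38 (adjusted p = 4.71e-05) and Egln2 by -0.22 (adjusted p = 0.00457), with every knock-out library below every ΔTAD library. Of all tested genes, 33.0% passed in this comparison.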

How the results depend on the processing

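Total counts of called genes stayed within 1.5 times of those reported under every alternative run. By direction some moved further, namely the HIF targets lower in knock-out than in ΔTAD (35, but 20 with library size alone) and, of the 10 genes, those lower in knock-out than in ΔTAD (3, but 5 at an adjusted p under 0.05) and those lower in ΔTAD than in wild-type (2, but 1 relative to the chromosome median). With library size alone, 23.1% of all genes were called between the mutants, against 33.0% in the main run. Of 459 alternative values for 27 gene comparisons, 443 kept direction and side of the threshold, 9 lost the call, 4 gained one and 3 changed sign without being called in either setting. The latter were Egln1 in ΔTAD against wild-type with library size alone (-0.00295), Arnt between the mutants relative to the chromosome median (-0.0134) and Egln2 in knock-out without wild-type replicate 2 (-0.0146, against up to 0.116 when wild-type replicate 1 was left out). Lost calls were those of Egln2 given in the report, and Hif1a in knock-out and Egln3 in ΔTAD relative to chromosome 12. Nrp1 between the mutants passed without a filter on low counts (-0.15; edgeR adjusted p = 0.00571) and Vhl relative to its chromosome (-0.20; edgeR adjusted p = 0.00915), and both passed at 0.05. With the replicate number as a block, 8, 8 and 4 of the 10 genes and 45, 46 and 44 HIF targets were called (knock-out, then ΔTAD, each compared with wild-type, then the 2 mutants with each other), and no call of a single gene changed. Libraries with the same number correlated by -0.0717 to 0.0200 in their deviations, so the number does not pair them. Leaving out 1 library gave 8, 8 and 3 to 4 called genes of the 10 and 41 to 44, 46 to 47 and 38 to 43 HIF targets. Depth limits Epas1, Kdr, Flt1 and Flt4.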
